A study of Mus musculus with 2 samples.

Results

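The endocannabinoid system of the CA1 region was followed through 7 genes of the 30431 in the deposited matrices, all found by symbol: the receptor gene Cnr1 and the enzyme genes Dagla, Daglb, Mgll, Abhd6, Napepld and Faah. Single nuclei of dorsal CA1, the output field of the hippocampus, had been sequenced from epileptic and from control mice, 1 library each. The epilepsy library came from male C57BL/6J mice of the genotype Calb1::Cre x Tdtomato, aged 6 to 7 weeks when they received repeated intraperitoneal kainate at 5 mg/kg up to status epilepticus, which diazepam at 4 mg/kg ended. The control library came from mice of the same sex, strain, genotype and starting age that were given vehicle (saline or DMSO). Nuclei of both were taken 12 weeks after treatment, when the kainate-treated mice had chronic seizures. Both groups therefore carry the Calb1-driven Cre and the reporter, which marks cells that express Calb1. The protocol counts 2 mice in each condition, but each condition has 1 library and it is unclear if that library mixes the mice, so no value below has a replicate and no difference between conditions was tested. All intervals are 95% intervals for counting error only.

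Endocannabinoids are lipid messengers that a neuron makes on demand in its dendrites and that travel back across the synapse to quiet transmitter release. The receptor CB1, the product of Cnr1, sits on axon terminals, most densely on those of cholecystokinin (CCK) basket cells, a class of hippocampal interneuron, and more thinly on glutamatergic terminals. Diacylglycerol lipases alpha and beta (Dagla, Daglb) make the messenger 2-arachidonoylglycerol (2-AG), which monoacylglycerol lipase (Mgll) and ABHD6 (Abhd6) break down. The other messenger, anandamide, is made by NAPE-PLD (Napepld) among other enzymes and broken down by fatty acid amide hydrolase (Faah).

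The genes lie on 5 chromosomes of GRCm38 in the GENCODE M21 annotation. Cnr1 spans chr4:33924593-33948831 on the plus strand and Faah chr4:115967145-116017926 on the minus strand. Mgll spans chr6:88724412-88828360 and Abhd6 chr14:8002902-8056763, both on the plus strand, and Dagla chr19:10245265-10304877 on the minus strand. Daglb (chr5:143464584-143505942, plus strand) overlaps Rac1 on the other strand and Mgll overlaps Gm26588 on the other strand. Napepld spans chr5:21662901-21701396 on the minus strand. The sources used here do not give whether counting used the strand, so reads of overlapping genes may be mixed.

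RefSeq promoter windows of GRCm38.p6 matched 6 of the 7 genes. The gene without a window was Dagla, which was also higher in pyramidal-like nuclei. Of the 6, 3 are shown because the results below turn on them: Cnr1, lower in CCK-like nuclei, and Mgll and Abhd6, higher in pyramidal-like nuclei. Each run is the 250 bases before the gene's outermost RefSeq start, 5' to 3' on the plus strand, with matches to GGGCGG or its reverse complement in capitals.
Cnr1: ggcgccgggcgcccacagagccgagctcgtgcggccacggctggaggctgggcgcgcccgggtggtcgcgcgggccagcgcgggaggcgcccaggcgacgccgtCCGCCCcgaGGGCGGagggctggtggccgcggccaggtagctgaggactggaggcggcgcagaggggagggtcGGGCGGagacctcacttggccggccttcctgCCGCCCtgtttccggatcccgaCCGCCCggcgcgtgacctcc
Mgll: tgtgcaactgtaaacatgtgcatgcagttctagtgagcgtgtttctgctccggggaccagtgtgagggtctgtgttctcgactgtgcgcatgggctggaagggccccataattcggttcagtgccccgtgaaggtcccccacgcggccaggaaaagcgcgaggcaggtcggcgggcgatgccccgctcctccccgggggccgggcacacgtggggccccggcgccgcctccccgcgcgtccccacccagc
Abhd6: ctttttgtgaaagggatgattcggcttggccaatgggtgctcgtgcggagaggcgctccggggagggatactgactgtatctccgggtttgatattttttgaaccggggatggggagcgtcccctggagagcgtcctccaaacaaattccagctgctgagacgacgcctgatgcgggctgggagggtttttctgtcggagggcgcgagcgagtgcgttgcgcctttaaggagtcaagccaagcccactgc
The windows lie at chr4:33924014-33924263, chr6:88724162-88724411 and chr14:8002638-8002887. The Cnr1 window held 5 matches to GGGCGG, a motif found in 32.7% of 32851 promoter windows of the same length, and 36 CG dinucleotides, against a median of 6 over all windows. The Mgll and Abhd6 windows held 23 and 18 CG dinucleotides and no match to GGGCGG. None of the 3 windows held TATAAA (12.4% of all windows) or TGACGTCA (1.55% of all windows), searched on both strands.

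The libraries held 3078 epilepsy and 3661 control nuclei, with medians of 2443 and 3447 UMIs (unique molecular identifiers, counted RNA molecules) per nucleus, and 16 barcodes occurred in both. After removal of likely doublets, 2985 epilepsy and 3551 control nuclei were clustered without the 7 genes and named from markers. CA1 pyramidal-like nuclei numbered 2309 in the epilepsy library and 2836 in the control library, of which 1175 and 1323 were superficial-like, 470 and 682 deep-like, and the others had no sublayer. Interneuron-like nuclei numbered 144 and 197. They divided into 47 and 48 CCK-like, 57 and 81 MGE-like and 40 and 68 Lamp5-like nuclei. MGE-like stands for the medial ganglionic eminence lineage, with parvalbumin and somatostatin cells. The Lamp5-like class was named from markers of neurogliaform cells. Oligodendrocyte-like nuclei numbered 338 and 228. Dentate granule-like nuclei, which should lie outside CA1, numbered 14 and 152. Levels below are CPM, the UMIs of a gene summed over a class per 1000000 UMIs of that class. Where a share of nuclei depends on depth, it is also given after thinning, in which each nucleus was drawn down at random to 1000 UMIs and shallower nuclei were left out. Thinning kept 2192 of 2309 epilepsy and 2746 of 2836 control pyramidal-like nuclei, 136 of 144 and 185 of 197 interneuron-like nuclei, but 67 of 338 and 77 of 228 oligodendrocyte-like nuclei.

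Oligodendrocyte-like and microglia-like nuclei carried much pyramidal RNA. The summed level of 10 pyramidal marker genes in oligodendrocyte-like nuclei was 78.5% of that in pyramidal-like nuclei in the epilepsy library and 82.9% in the control library. In microglia-like nuclei it was 71.3% and 77.9%, and in interneuron-like nuclei 20.7% and 18.8%. Astrocyte-like nuclei had 33.9% and 49.4%, and a cluster with markers of oligodendrocyte precursors 15.0% and 10.8%. The median share over the 10 markers in oligodendrocyte-like nuclei was 63.0% and 59.7%. Fewer transcripts per nucleus and fewer expressing nuclei within a class cannot be told apart from a class sum.

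Cnr1 was concentrated in CCK-like interneurons in both libraries, and its level there was lower in epilepsy. In CCK-like nuclei it reached 149 CPM in the epilepsy library (14 UMIs, interval 81.4 to 249.9) and 339.5 CPM in the control library (45 UMIs, interval 248 to 454). The intervals of the levels just overlap, and the log2 ratio of epilepsy to control was -1.19 with an interval of -2.17 to -0.30. A Cnr1 UMI was seen in 11 of 47 epilepsy nuclei (23.4%, exact binomial interval 12.3 to 38.0) and in 22 of 48 control nuclei (45.8%, 31.4 to 60.8). Oligodendrocyte-like nuclei, a class with little known Cnr1, had one in 0.888% of epilepsy and 1.75% of control nuclei, at median depths of 624 and 849 UMIs. The CCK-like medians were 1615 and 2534 UMIs. No epilepsy CCK-like nucleus held more than 2 Cnr1 UMIs, whereas 6 control nuclei held 3 or more and the highest held 5.

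The CCK-like class joins 2 clusters, and Cnr1 separated them although it was not used to build them. The cluster with Cck and Slc17a8 (VGLUT3, a vesicular transporter of a subset of CCK basket cells) had 22 epilepsy and 30 control nuclei. There Cnr1 stood at 224 CPM in epilepsy (10 nuclei with a UMI) and 433 CPM in control (19 nuclei with a UMI), a log2 ratio of -0.95 (interval -1.97 to -0.026). Both clusters passed the marker minimum for Adarb2, Vip, Npas1 and Igf1. The other cluster was shallower, with a relative median depth of 0.62 among interneuron-like nuclei, against 0.98 for the first. That other cluster, which passed the minimum for Htr3a but not for Cck, Cxcl14 or Slc17a8, had 25 epilepsy and 18 control nuclei. It had only 1 and 3 Cnr1 UMIs. The class thus held a smaller part of the Cnr1-rich cluster in epilepsy, and the ratio within that cluster was closer to 0 than that of the class.

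The CCK-like name rests mainly on Adarb2, Npas1, Igf1 and Slc17a8. Cck itself had 2 UMIs in epilepsy and 5 in control, and Sncg and Calb2 had none in either library. Among the 10 CCK markers and Gad1 and Gad2, the better counted genes had ratios on both sides of 0. The log2 ratios were -0.089 (-1.18 to 0.95) for Slc17a8, 0.30 (-0.50 to 1.09) for Npas1 and 0.33 (-0.30 to 0.97) for Igf1, and 0.19 (-0.51 to 0.88) and -0.19 (-0.92 to 0.52) for Gad1 and Gad2, the GABA-synthesizing enzymes. Adarb2, the commonest marker, stood at -0.27 (-0.35 to -0.18). The sparser markers Cxcl14, Cck and Vip were lower in epilepsy within wide intervals. Cxcl14, with 1 UMI in epilepsy and 7 in control, stood at -2.31 (-7.81 to 0.65), Cck at -0.83 (-4.22 to 1.78), Vip at -0.50 (-2.40 to 1.18) and Htr3a, with 2 and 3 UMIs, at -0.089 (-3.67 to 3.04). With each nucleus thinned to 1000 UMIs, the share of CCK-like nuclei with a Cnr1 UMI was 13.6% in epilepsy and 22.2% in control, and the log2 ratio was -0.75 (-2.33 to 0.72). At that depth a difference was not detectable, since the interval holds 0. It also held 0 when genes were not centred by library before clustering (-0.84, -1.79 to 0.02).

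**Figure D1:**
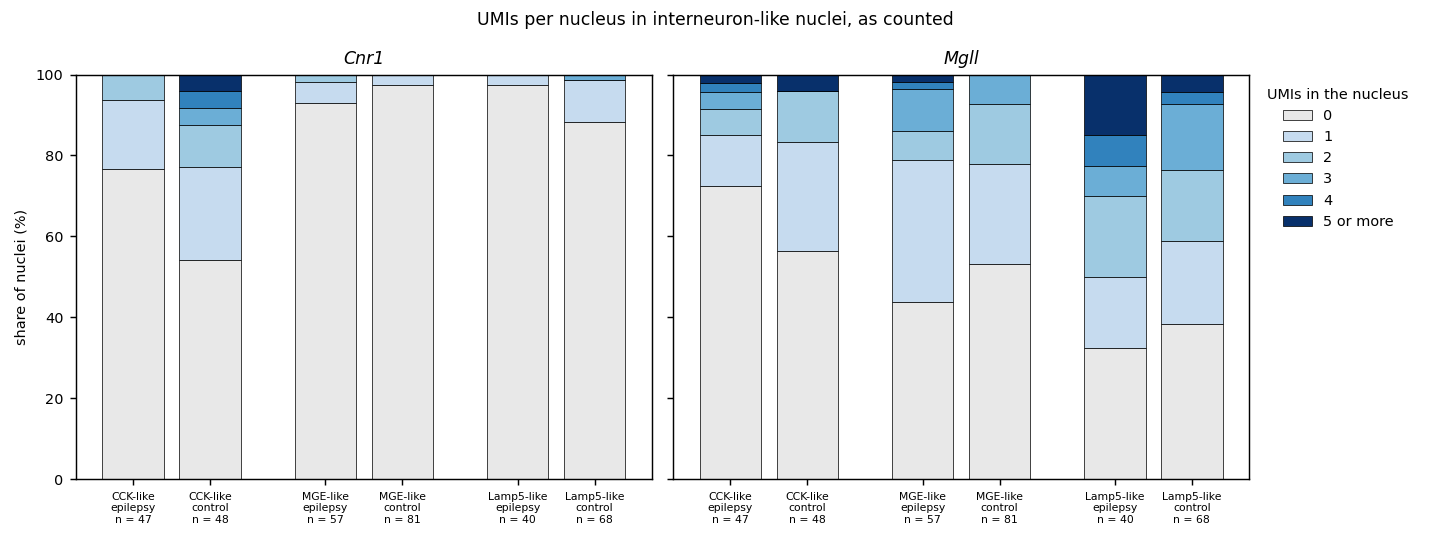
Share of CCK-, MGE- and Lamp5-like nuclei (percent, y axis) by number of Cnr1 (left) and Mgll (right) UMIs, as counted, with the epilepsy library left of the control library in each pair. Nuclei with 3 or more Cnr1 UMIs occur among control CCK-like nuclei and in 1 control Lamp5-like nucleus. Among the groups shown, the share of nuclei with 5 or more Mgll UMIs is largest for Lamp5-like nuclei in epilepsy (6 of 40 nuclei, against 3 of 68 in control).

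In every other class Cnr1 stood below its CCK-like level of the same library. In MGE-like nuclei it stood at 33.0 CPM in epilepsy and 6.48 CPM in control, from 5 and 2 UMIs. The CCK-like level exceeded the MGE-like one within each library, by a log2 ratio of 2.17 (0.62 to 4.00) in epilepsy and 5.71 (3.77 to 8.80) in control; the difference between those ratios was not tested. Lamp5-like nuclei had 11.6 CPM in epilepsy (1 UMI) and 45.8 CPM in control (10 UMIs). Of the control UMIs, 5 came from a small cluster with Kit, Reln and Ndnf and 3 from another of 12 control nuclei. The cluster with Kit had 204 CPM in control (9 nuclei, interval 66.2 to 476), which overlaps the CCK-like interval, and 0 UMIs in 8 epilepsy nuclei. Pyramidal-like nuclei had 13.1 CPM in epilepsy (10.3 to 16.4) and 15.9 CPM in control (13.5 to 18.7), with a log2 ratio of -0.28 (-0.70 to 0.12). Oligodendrocyte-like nuclei had 8.98 CPM (3 UMIs) and 14.5 CPM (5 UMIs), 68.5% and 90.9% of the pyramidal level, beside pyramidal marker shares of 78.5% and 82.9% there. After thinning, 1.51% of epilepsy and 1.71% of control pyramidal-like nuclei held a Cnr1 UMI, and 0% and 2.60% of oligodendrocyte-like nuclei. Dentate granule-like nuclei of the control library had 0 of 300337 UMIs. That allows up to 9.99 CPM when 3 counts are taken as the limit, or 12.3 CPM by the exact Poisson interval, both below the pyramidal interval of that library.

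In the control library the Cnr1 levels of neurons ran, from high to low, CCK-like, Lamp5-like, pyramidal-like and MGE-like, and the intervals of the last neighbours alone overlapped. The place of the Lamp5-like class rested on its small clusters. Its largest cluster had 2 Cnr1 UMIs in 47 control nuclei, 13.7 CPM (1.67 to 49.7), an interval that holds the pyramidal-like level. In the epilepsy library only the CCK-like interval lay apart from the other 3. By number of molecules, most Cnr1 lay outside the CCK-like class: 73.1% of the 104 Cnr1 UMIs of the epilepsy library and 69.2% of the 224 of the control library came from pyramidal-like nuclei. CCK-like nuclei gave 13.5% and 20.1% while making up 1.57% and 1.35% of the nuclei.

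Dagla, which makes 2-AG at spines of principal neurons, lay mostly in pyramidal-like nuclei and was higher there in epilepsy. Pyramidal-like nuclei held 286 CPM in the epilepsy library and 204 CPM in the control library (1655 and 1987 UMIs), a log2 ratio of 0.48 with an interval of 0.39 to 0.58. The direction was shared by every pyramidal group named: 301 CPM in epilepsy against 223 in control in superficial-like nuclei (0.43, 0.30 to 0.56), 206 against 161 in deep-like nuclei (0.35, 0.12 to 0.58) and 318 against 212 in those with no sublayer (0.59, 0.41 to 0.76). A pyramidal cluster high in immediate early genes such as Fos and Npas4 had 338 CPM in epilepsy and 212 CPM in control (0.67, 0.29 to 1.05). As counted, 48.4% of epilepsy and 47.8% of control pyramidal-like nuclei held a Dagla UMI. After thinning to equal depth the shares were 24.7% in epilepsy and 19.7% in control.

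Among interneurons Dagla was unevenly spread. CCK-like nuclei had 1 UMI in epilepsy and 2 in control (10.6 and 15.1 CPM), while MGE-like nuclei had 126 and 81.0 CPM and Lamp5-like nuclei 81.2 and 96.2 CPM. Within each library CCK-like nuclei lay below MGE-like ones, at a log2 ratio of -3.56 (-8.94 to -0.91) in epilepsy and -2.42 (-5.55 to -0.42) in control. Against Lamp5-like nuclei the CCK-like ratio was -2.93 (-8.43 to 0.028) in epilepsy, where the interval just holds 0, and -2.67 (-5.81 to -0.64) in control. The group highest in the receptor thus had the fewest UMIs of this synthetic enzyme. Control dentate granule-like nuclei held 249.7 CPM (75 UMIs). The oligodendrocyte-like level, 147 CPM in epilepsy and 136 CPM in control, was 51.4% and 66.6% of the pyramidal one. Both lie below the share of the summed pyramidal markers there, but the control value lies above that library's median marker share.

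Daglb, the second lipase, was sparse. Pyramidal-like nuclei held 26.2 CPM in the epilepsy library and 32.7 CPM in the control library, a log2 ratio of -0.32 (-0.61 to -0.035) that turned to 0.091 when nuclei were thinned to equal depth, so no direction is read from it. Its highest level in the control library among neurons was in dentate granule-like nuclei, at 96.6 CPM (29 UMIs, interval 64.7 to 139), against 32.7 CPM in pyramidal-like nuclei of that library. The epilepsy library had 14 such nuclei and 1 Daglb UMI in them. In microglia-like nuclei, a cell type in which this lipase is known to act, Daglb had 5 UMIs in epilepsy and 11 in control, 86.5 CPM (28.1 to 202) and 109.7 CPM (54.7 to 196). In the control library that interval lies above the pyramidal one (29.2 to 36.5), while the summed pyramidal markers stood at 77.9% of their pyramidal level.

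Mgll, the main 2-AG hydrolase at presynaptic sites, was higher in epilepsy in pyramidal-like nuclei and in interneuron-like nuclei. Pyramidal-like nuclei held 169.7 CPM in the epilepsy library and 122 CPM in the control library (983 and 1186 UMIs; log2 ratio 0.48, interval 0.35 to 0.60). In superficial-like nuclei the levels were 204 CPM in epilepsy and 139.7 CPM in control (0.55, 0.39 to 0.71). Deep-like nuclei had 101 and 88.1 CPM (0.19, -0.14 to 0.52), and their interval holds 0. The difference between the sublayers' ratios was not tested, and their intervals overlap. The cluster high in immediate early genes ran the other way, with 67.6 CPM in epilepsy and 97.8 CPM in control, within counting error (-0.53, -1.33 to 0.21).

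Interneuron-like nuclei held 495 CPM in the epilepsy library and 296 CPM in the control library (164 and 195 UMIs; log2 ratio 0.74, interval 0.43 to 1.05). Lamp5-like nuclei had the highest level of the interneurons in both libraries, 905 CPM in epilepsy (715 to 1129.5) and 439.9 CPM in control (356 to 537). These intervals do not overlap, and the log2 ratio was 1.04 (0.59 to 1.49). One Lamp5-like cluster had 3 epilepsy and 12 control nuclei and, of the neurogliaform markers, passed the minimum for Lamp5, Ndnf and Fgf13 only. Mgll stood there at 524 CPM in epilepsy and 82.9 CPM in control, from 4 UMIs in each. Without this cluster the ratio of the class was 0.80 (0.34 to 1.26), an alternative chosen after seeing the data. With TMM scaling of the whole class it was 0.90. Within the largest Lamp5-like cluster the levels were 1093 and 605 CPM (0.85, 0.38 to 1.32).

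MGE-like nuclei had 370.1 CPM in epilepsy and 201 CPM in control (0.88, 0.33 to 1.43), with a ratio of 0.32 (-0.68 to 1.30) after thinning. CCK-like nuclei had 319 and 279 CPM (0.19, -0.55 to 0.93), a difference within counting error. Lamp5-like nuclei exceeded MGE-like ones within each library, by 1.29 (0.78 to 1.81) on the log2 scale in epilepsy and 1.13 (0.65 to 1.61) in control. A Mgll UMI was seen in 27 of 40 Lamp5-like epilepsy nuclei and 42 of 68 control nuclei, and after thinning in 53.8% and 34.9%. From high to low, the Mgll levels of the interneuron groups and pyramidal sublayers in the control library ran Lamp5-like, CCK-like, MGE-like, superficial-like and deep-like. Neighbours in this order overlapped in their intervals between Lamp5-like (356 to 537) and CCK-like (197 to 385), and between CCK-like and MGE-like (154 to 258), but not from MGE-like to superficial-like (129 to 151) or on to deep-like (76.8 to 101). In the epilepsy library CCK-like and MGE-like stood in the other order within their intervals, and Lamp5-like lay apart from both. CA2/CA3 pyramidal-like nuclei, of the neighbouring fields, had 269.8 CPM in epilepsy (48 UMIs) and 131 CPM in control (10 UMIs).

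In glia Mgll rested on few UMIs. Astrocyte-like nuclei had 542 CPM in epilepsy (19 UMIs in 34 nuclei) and 257 CPM in control (11 UMIs in 29 nuclei). These are 319% and 211% of the pyramidal level, above the share of summed pyramidal markers in astrocyte-like nuclei (33.9% and 49.4%). A cluster with markers of oligodendrocyte precursors had 420.0 CPM (13 UMIs) and 267 CPM (7 UMIs), 247% and 219% of the pyramidal level, with marker shares of 15.0% and 10.8%. Microglia-like nuclei had 311 CPM (18 UMIs) and 109.7 CPM (11 UMIs), a log2 ratio of 1.505 (0.34 to 2.73). These are 183% and 89.9% of the pyramidal level, with marker shares of 71.3% and 77.9%. Their median depth was 790.5 UMIs in epilepsy and 3002 in control, and the part of this gap in the ratio was not tested. Oligodendrocyte-like nuclei had 98.8 and 113 CPM (-0.19, -0.91 to 0.51). These are 58.2% and 92.6% of the pyramidal level, below the summed marker share of 78.5% in epilepsy and above that of 82.9% in control.

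**Figure D2:**
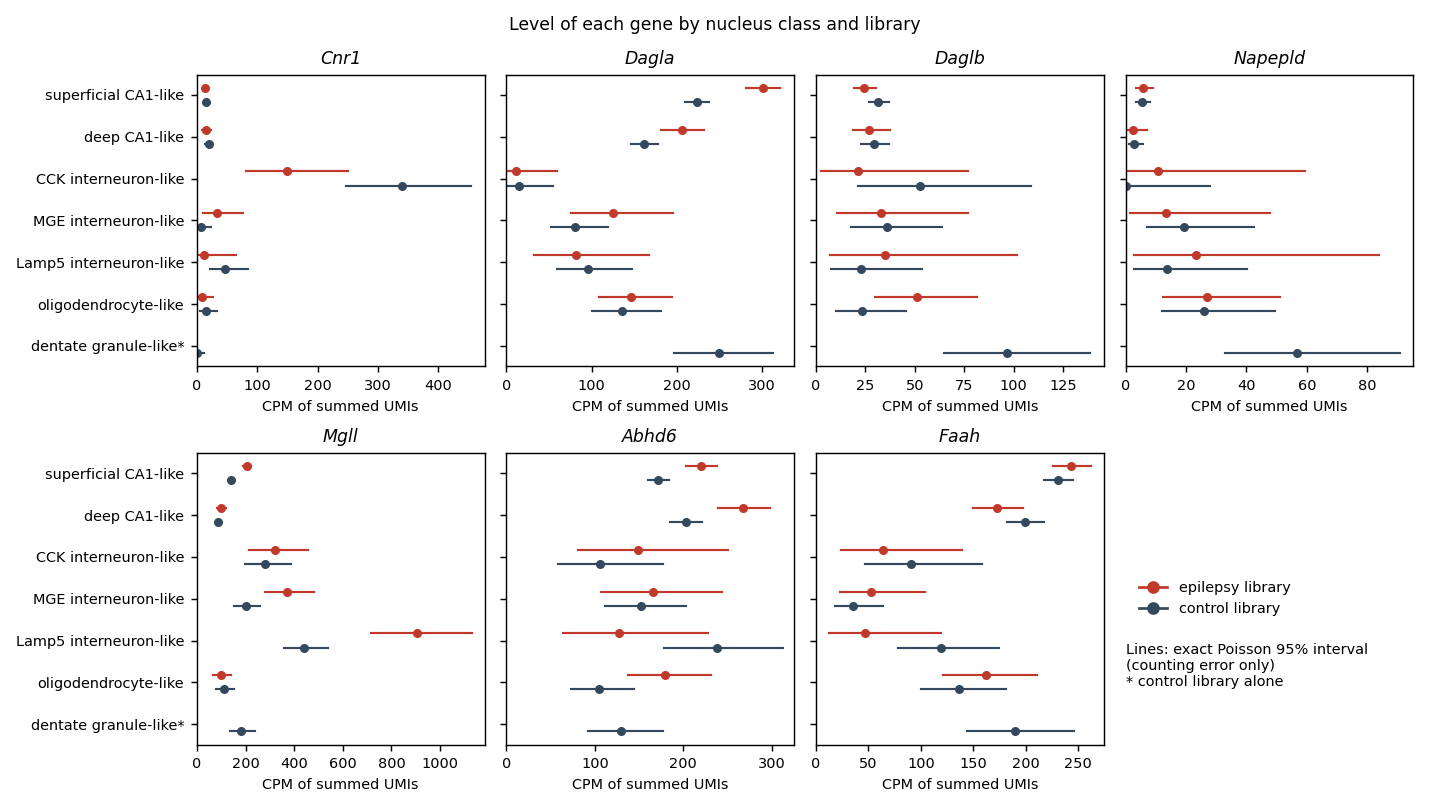
Level of each gene (CPM of summed UMIs, x axis, with its own scale in each panel) by nucleus class (y axis), epilepsy points above control points, with exact Poisson 95% intervals for counting error. Cnr1 is highest in CCK-like nuclei (149 CPM in epilepsy, 339.5 CPM in control) and Mgll in Lamp5-like nuclei (905 CPM in epilepsy, 439.9 CPM in control), while Dagla is lower in CCK-like than in the other interneuron groups. The dentate granule-like row shows the control library alone.

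Abhd6, a postsynaptic hydrolase that takes a smaller part of 2-AG breakdown, was higher in epilepsy in the pyramidal groups. Pyramidal-like nuclei held 234 CPM in the epilepsy library and 179.6 CPM in the control library (1356 and 1746 UMIs; log2 ratio 0.38, interval 0.28 to 0.49). Deep-like nuclei had 267 CPM in epilepsy and 203 CPM in control (0.40, 0.20 to 0.60), and superficial-like nuclei 219.9 and 171 CPM (0.36, 0.21 to 0.51). Interneuron-like nuclei had 151 and 171 CPM, a difference within counting error (-0.18, -0.69 to 0.31). In Lamp5-like nuclei Abhd6 had 11 UMIs in epilepsy and 52 in control, 128 and 238 CPM, and the interval of the ratio reached just past 0 (-0.90, -1.99 to 0.056). Oligodendrocyte-like nuclei had 179.7 and 104 CPM (0.78, 0.16 to 1.42), but the ratio was 0.031 (-1.54 to 1.58) after thinning. Those levels were 76.7% and 58.1% of the pyramidal ones. Both lie below the summed pyramidal markers' share, but the epilepsy value lies above that library's median marker share.

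Faah, the anandamide hydrolase of principal neurons, had nearly the same pyramidal level in both libraries. Pyramidal-like nuclei held 218 CPM in the epilepsy library and 218 CPM in the control library (1260 and 2119 UMIs), a log2 ratio of -0.0032 with an interval of -0.10 to 0.098. As counted, fewer epilepsy nuclei held a UMI (40.8% against 51.9% in control), and after thinning to equal depth the shares were 19.8% and 20.9%. Interneuron-like nuclei held 54.3 CPM in epilepsy and 74.3 CPM in control (-0.45, -1.32 to 0.35), about 25.0% and 34.1% of the pyramidal level. The summed pyramidal markers stood at 20.7% and 18.8% there. In MGE-like nuclei Faah was at 24.3% and 16.4% of its pyramidal level, below the summed marker shares of 26.8% and 23.4%. Both values lie above the median marker shares there, 19.0% in epilepsy and 14.0% in control. In CCK-like and Lamp5-like nuclei Faah lay above the marker shares of those classes. The part of pyramidal RNA in these levels was not tested. Lamp5-like nuclei had 4 UMIs in epilepsy and 26 in control (46.4 and 119 CPM; -1.36, -3.34 to 0.17), within counting error.

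Napepld was the rarest of the 7 in pyramidal-like nuclei, with 24 UMIs in epilepsy and 47 in control (4.14 and 4.84 CPM; -0.22, -0.997 to 0.52). Among classes of the control library it was highest in dentate granule-like nuclei, at 56.6 CPM (17 UMIs, interval 33.0 to 90.6), an interval that lies wholly above that of pyramidal-like nuclei (3.55 to 6.43). Oligodendrocyte-like nuclei had 27.0 CPM in epilepsy and 26.1 CPM in control, from 9 UMIs in each. That is more than the pyramidal level in the same library, so for this gene the oligodendrocyte-like level exceeded the share of pyramidal markers.

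In pyramidal-like nuclei 0 of the 7 genes were higher or lower by 1.5-fold, where 8.45% of the 11054 genes with at least 50 UMIs were higher and 5.37% lower. The ratios of Dagla, Mgll and Abhd6 lay above those of 89.2%, 89.0% and 85.6% of these genes, with intervals above 0. Those of Faah, Napepld, Cnr1 and Daglb lay above 50.4%, 24.7%, 19.4% and 16.6%. The median log2 ratio of the 7 genes was -0.0032, against -0.0063 over all genes. In superficial-like nuclei 0 of 6 genes with enough UMIs passed 1.5-fold (7.02% of all genes higher, 5.28% lower), and in deep-like nuclei 0 of 6 (5.18% higher, 8.62% lower). Among nuclei with no sublayer 1 of 6, Dagla, was higher (5.27% of all genes), and 0 of 6 were lower (8.05%). Of the 5 genes with enough UMIs in interneuron-like nuclei, 1, Mgll, was higher (5.53% of all genes) and 0 lower (7.34%). In the interneuron groups 2 genes each had enough UMIs. In CCK-like nuclei Cnr1 was lower (7.91% of 708 genes) and none was higher (8.76%), and the Cnr1 ratio lay above those of 1.13% of these genes. In MGE-like nuclei Mgll was higher (6.09%) and none lower (7.76%). In Lamp5-like nuclei Mgll was higher (9.91%) and Abhd6 lower (10.0%). In oligodendrocyte-like nuclei 1 of 4, Abhd6, was higher (5.62%) and 0 lower (7.32%). In microglia-like nuclei 0 of the 7 genes had enough UMIs to be counted, where 8.71% of the counted genes were higher and 13.2% lower.

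**Figure D3:**
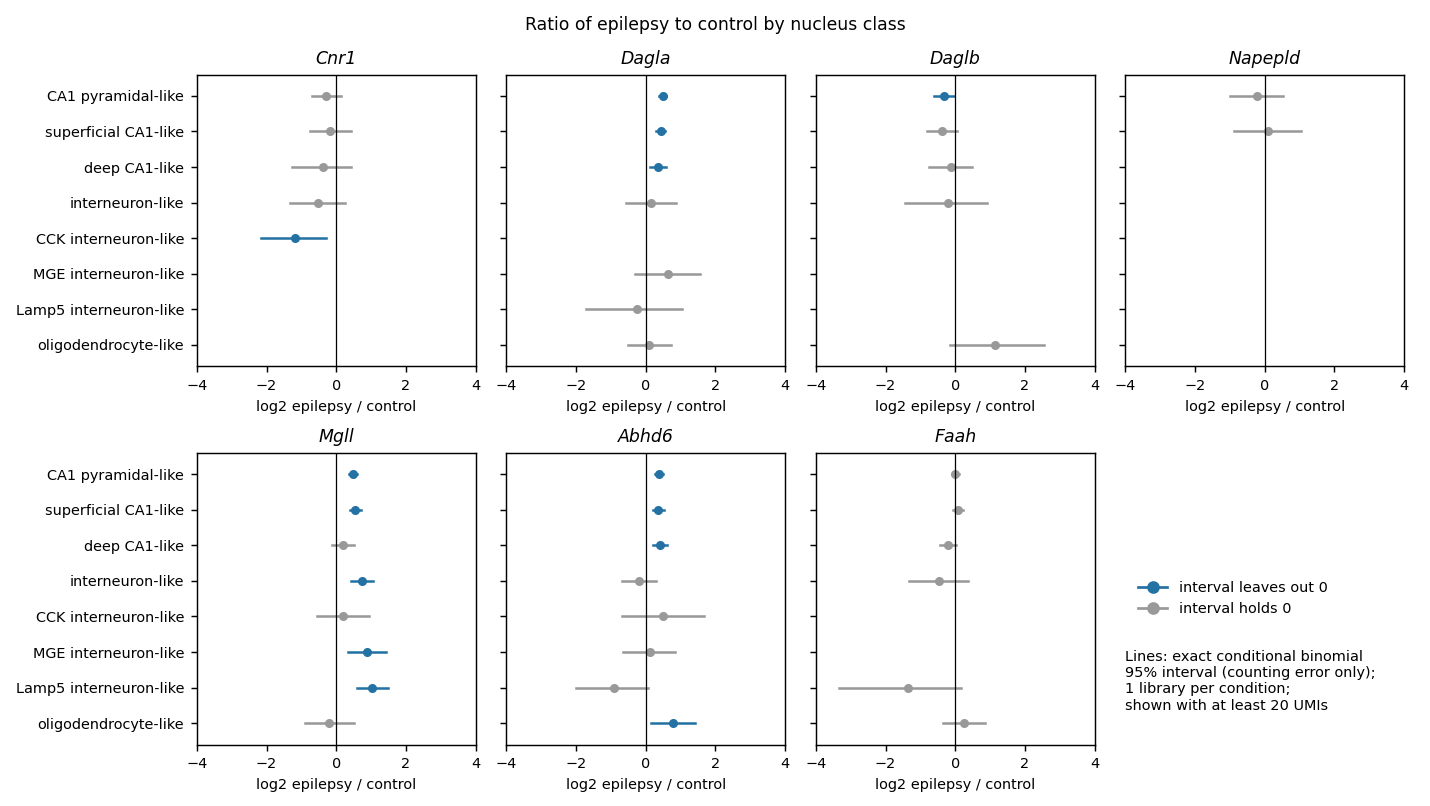
Log2 ratio of epilepsy to control (x axis) of each gene by nucleus class (y axis), with exact 95% intervals for counting error, shown where both libraries together gave at least 20 UMIs. In pyramidal-like nuclei Dagla (0.48), Mgll (0.48) and Abhd6 (0.38) lie right of 0 and Faah (-0.0032) on it, and in CCK-like nuclei Cnr1 (-1.19) lies left of 0.

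The sublayers differed in the breakdown and synthesis enzymes within each library, in nuclei clustered without these genes. The superficial sublayer of CA1 holds the Calb1 pyramidal cells nearest the stratum radiatum, and the deep one those nearest the stratum oriens. Mgll was higher in superficial-like than in deep-like nuclei, by a log2 ratio of 1.02 (0.74 to 1.31) in epilepsy and 0.66 (0.44 to 0.89) in control. Dagla had the same direction, at 0.55 (0.35 to 0.76) and 0.47 (0.30 to 0.64), as did Faah, at 0.50 (0.28 to 0.73) and 0.21 (0.055 to 0.37). Abhd6 ran the other way, at -0.28 (-0.48 to -0.086) and -0.24 (-0.40 to -0.077). The hydrolases of 2-AG thus lay on opposite sides, with Mgll superficial and Abhd6 deep in both libraries. For Cnr1, Daglb and Napepld every interval held 0. The superficial-to-deep ratio of Mgll and of Faah was larger in the epilepsy library than in the control library, but in each case the intervals overlap and the difference was not tested.

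**Figure D4:**
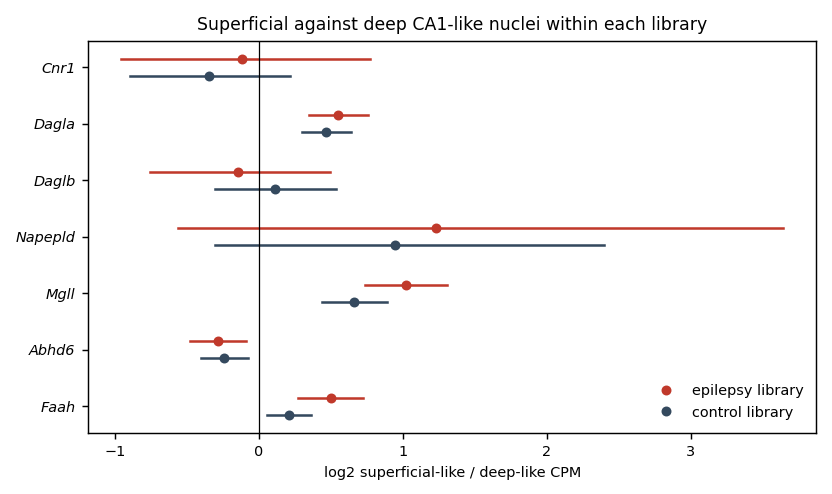
Log2 ratio of superficial-like to deep-like CPM (x axis) of each gene (y axis), epilepsy points above control points, with exact 95% intervals for counting error. Mgll, Dagla and Faah lie right of 0 and Abhd6 left of 0 in both libraries, with Mgll at 1.02 in epilepsy and 0.66 in control.

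Beside these 7 genes, 55 genes of the same pathway were counted: other receptors, partners of CB1, triggers of 2-AG synthesis, other enzymes, lipid carriers and CB1 effectors. In pyramidal-like nuclei 37 had at least 50 UMIs, of which 2 were higher by 1.5-fold (8.45% of all genes) and 0 lower (5.37%), with a median log2 ratio of 0.021, against -0.0063 over all genes. Inpp5d, a lipid phosphatase also used here as a microglia marker, had 8.11 CPM in the epilepsy library and 3.81 CPM in the control library (log2 ratio 1.09, interval 0.44 to 1.75). Plcb4, a phospholipase C that Gq receptors drive, had 7.94 CPM in the epilepsy library and 4.84 CPM in the control library (log2 ratio 0.72, interval 0.097 to 1.33). Both rest on under 50 UMIs in each library. In interneuron-like nuclei 23 were counted, of which 1 was higher (5.53% of all genes) and 0 lower (7.34%), with a median of 0.016 against -0.0080 over all genes. That one, Gdpd1, a lysophospholipase D that can yield lipids of the anandamide class, had 115 CPM in the epilepsy library and 72.8 CPM in the control library (log2 ratio 0.65, interval 0.0015 to 1.30).

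Further pathway genes are given as values, chosen after they were seen, and those of pyramidal-like nuclei differed by less than 1.5-fold. Grm5, the metabotropic glutamate receptor that drives 2-AG synthesis through Gq, had a log2 ratio of -0.30 (-0.33 to -0.27), while its downstream Gnaq and Plcb1 stood at 0.072 (-0.0030 to 0.15) and 0.071 (0.033 to 0.11). Among effectors, the adenylate cyclase Adcy8 had -0.55 (-0.66 to -0.44), the GIRK channel subunit Kcnj3 -0.42 (-0.50 to -0.34), the G protein subunit Gng2 -0.47 (-0.60 to -0.33) and the calcium channel subunit Cacna1a 0.25 (0.21 to 0.30). Of the 37 list genes counted in pyramidal-like nuclei, 20 had a ratio above 0 (49.1% of all genes). In Lamp5-like nuclei 15 list genes had at least 50 UMIs, of which 4 were higher by 1.5-fold (Plcb4, Homer2, Gnao1 and Adcy1; 9.91% of all genes) and 1 lower (Kcnj6; 10.0% of all genes), with a median log2 ratio of 0.060, against 0.0049 over all genes. In superficial-like nuclei 1 of 33 was higher (Homer3; 7.02% of all genes) and 2 lower (Kcnj9 and Adcy8; 5.28% of all genes), near the shares over all genes. The CB1 partners Sgip1 and Cnrip1 stood at 0.043 (-0.027 to 0.11) and -0.080 (-0.21 to 0.049). In CCK-like nuclei Grm5 had 532 CPM in the epilepsy library and 966 CPM in the control library (log2 ratio -0.86, interval -1.36 to -0.38), the one gene past 1.5-fold of the 10 with at least 50 UMIs, where 7.91% of all genes were lower and 8.76% higher, while Sgip1 had a ratio of -0.10 (-0.53 to 0.32). Cnr2, the gene of the other cannabinoid receptor, had 3 UMIs in epilepsy and 4 in control in all pyramidal-like nuclei, and Trpv1 1 and 2.

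The genes with the most similar profile were sought over 25 pairs of a cluster and a library, among 7440 genes, by Pearson's r of log2(CPM + 10). The pairs share their library, depth and free RNA, so r is a description. Faah was closest to Camkv (0.90), Rtn4r (0.90) and Klhl3 (0.88), and Dagla to Grin2a (0.89), the gene of an NMDA receptor subunit, Kif1c (0.86) and Adcy9 (0.84). Mgll was closest to Tnrc18 (0.80), St5 (0.78) and the adrenergic receptor gene Adra1a (0.77). Abhd6 was closest to Khsrp (0.76), Fam227a (0.71) and Saraf (0.71), and Daglb to Rexo2 (0.89), Mrps33 (0.85) and Pex3 (0.82). Napepld was closest to Ei24 (0.76), Rnf141 (0.75) and Kcna1 (0.72). For Cnr1 the 5 closest genes reached lower values: Setd1a (0.69), Frmd3 (0.67), Zfp52 (0.67), Paip1 (0.64) and Zfp148 (0.63).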

How the data were processed

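Nuclei of dissected dorsal CA1 were sorted by FACS, per the labels' protocols, and 15000 were loaded per sample for 10x 3' v2 libraries, read as 75 bp pairs. The deposited matrices hold raw UMI counts per gene and nucleus, with no normalization by the authors. Cell Ranger 2.2.0 and FastQC are named in the submitters' processing notes. The sources used here do not give the annotation, how barcodes were selected or whether introns were counted. The build is GRCm38, per the same notes. Of 30431 gene IDs, 30330 matched GENCODE M21.

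Nuclei with at least 200 genes and under 5% mitochondrial UMIs were kept (0 removed). Scrublet marked 4 nuclei in each library (0.130% of epilepsy, 0.109% of control nuclei), so the 3% with the highest scores were removed (93 epilepsy, 110 control). The 2000 most variable genes, without the 7 genes and the pathway list, were standardised per library, reduced to 30 components and clustered by Leiden (scanpy 1.11.5, leidenalg 0.10.2, resolution 1.0). Interneuron and pyramidal nuclei were clustered again. A class needed 3 markers at 20 CPM and 2-fold, and markers of its own subtypes counted as its own, a detail set after the clusters were seen. Sublayers needed Ndst4 at 2-fold, Calb1 in the opposite direction and 1 further marker at 1.25-fold. Classes rebuilt in this way may differ from the authors'.

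Sums per class and library gave CPM with exact Poisson intervals, ratios with exact conditional binomial intervals and shares with Clopper-Pearson intervals, all at 95%. Only the ratio intervals were checked, on Poisson counts simulated for pyramidal-like and CCK-like nuclei. Those counts follow the intervals' own assumption, so the check does not cover spread between mice, libraries or nuclei. A ratio between conditions needed 30 nuclei in each library (15 for interneuron subtypes). The 7 genes and the gene lists were chosen with earlier results of these data known. All 7 genes are given. Pathway genes are named where they passed 1.5-fold with an interval beyond 0 in pyramidal-like or interneuron-like nuclei; the others named were chosen after their values were seen. Genes of similar profile are the 5 for Cnr1 and the 3 for each other gene with the highest r among genes with at least 200 UMIs. Alternatives changed the filters, doublet removal, resolution, centring, weighting, thinning and edgeR 4.0.16 TMM scaling.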

Additional observations from a re-analysis of the deposited data

Results flagged for a closer look

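Abhd6 had ratios of opposite direction in oligodendrocyte-like and Lamp5-like nuclei: a log2 ratio of epilepsy to control of 0.78 (0.16 to 1.42) in oligodendrocyte-like nuclei and -0.90 (-1.99 to 0.056) in Lamp5-like nuclei. The difference between them was not tested. The oligodendrocyte-like ratio was 0.031 after thinning, and the Lamp5-like interval holds 0.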

How the results depend on the processing

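Of 482 recomputed log2 ratios of epilepsy to control, 473 stayed within the interval of the reported value. Of the 18 ratios whose reported interval leaves out 0, 1 changed sign: Daglb in pyramidal-like nuclei, 0.091 after thinning to 1000 UMIs. Among the 171 recomputed values of these 18 ratios, 8 had an interval that held 0. Equal weighting per nucleus gave no intervals. Of the 33 ratios whose reported interval holds 0, 14 changed sign under at least 1 alternative. In pyramidal-like nuclei the ratio ran over the alternatives from 0.40 to 0.50 for Dagla, from 0.40 to 0.56 for Mgll and from 0.30 to 0.43 for Abhd6. The Cnr1 ratio in CCK-like nuclei ran from -1.26 to -0.75, and the Mgll ratio in Lamp5-like nuclei from 0.77 to 1.12. TMM scaling moved all ratios down by 0.02 to 0.20, with shifts over 0.1 in Lamp5-like (-0.15) and microglia-like (-0.20) nuclei. The count of pathway genes higher in pyramidal-like nuclei was 5 with at least 20 UMIs, 0 with at least 200 UMIs and 1 at a fold of 2, and the count lower was 2 with TMM scaling and 1 with doublets kept. In interneuron-like nuclei the count of the 7 genes higher was 0 at a fold of 2. The count lower was 1 with equal weight per nucleus, and 1 without the clusters mostly of 1 library, an alternative chosen after seeing the data. The causes were not tested. Within 1 library per condition, mouse, dissection and library preparation cannot be told apart from epilepsy. The low UMI counts limit Cnr1, Daglb and Napepld and all glial values. No paired analysis was possible because each condition has 1 library and the results come from no test.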
